A study of Mus musculus with 9 samples.

Results

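Expression of the Wnt pathway was examined gene by gene in B16F10 cells, a mouse melanoma line, labelled as control or Tada2b knockout. The genes were the protein-coding members of the Wnt, Frizzled, Dkk, Sfrp, R-spondin, Axin and Lgr families by symbol, with Lrp5, Lrp6, Ctnnb1, Lef1, Tcf7, Tcf7l1, Tcf7l2, Rnf43, Znrf3, Apc and Nkd1. This gave 57 of the 54752 genes in the count table. The rule uses symbols and no expression values, but it was drawn up with earlier results of these data known. The control group was GFPsg, with a guide named for GFP and the genotype given as WT. Tada2bsg1 (guide 1) and Tada2bsg2 (guide 2) both carried the genotype Tada2b knockout. All 3 groups were cell cultures in DMEM with 10% FBS, with 3 libraries each; only the groups labelled knockout carry a Tada2b guide. Whether each guide was grown as a pool or as 1 clone, and whether replicates were separate cultures, was not given in the sources used here, so p-values measure only the spread between these libraries. Tada2b encodes an adaptor of the SAGA histone acetyltransferase complex.

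Wnt proteins are secreted ligands that bind a Frizzled receptor together with the co-receptor Lrp5 or Lrp6. Without a ligand, a complex built on Axin and Apc marks beta-catenin, the product of Ctnnb1, for destruction; with a ligand, beta-catenin builds up, enters the nucleus and acts with the TCF/LEF factors on target genes. R-spondins bind Lgr receptors and keep the ubiquitin ligases Rnf43 and Znrf3 from removing Frizzled, while Dkk and Sfrp proteins work outside the cell, most of them as inhibitors. In the pigment cell lineage, Wnt signals act in the making of melanocytes from the neural crest, and Mitf is a known target.

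Library totals ran from 70.6 to 76.9 M counts, and levels are given as CPM, a gene's share of its library's counts scaled by TMM (trimmed mean of M-values). On that scale 1 CPM stood for 66.7 to 79.0 reads. The mRNA of Tada2b, the gene both guides target by name, was not lower with either of them. It was at 25.2 to 28.0 CPM in GFPsg, was called higher with guide 1 (32.3 to 33.3 CPM, log2 0.30, edgeR adjusted p = 0.000213) and was not called with guide 2 (25.9 to 29.0 CPM, log2 0.02, adjusted p = 0.806). The guides differed from each other (log2 −0.28 for guide 2 against guide 1, edgeR adjusted p = 0.00671). The counts do not check the knockout label. Summed over 10 melanocyte markers control libraries held 21400 to 22300 CPM, those of guide 1 5170 to 5410 CPM and those of guide 2 7330 to 7570 CPM, and all 10 markers fell. Fibroblast and endothelial markers (10 genes, of which 3 rose and 1 fell among 5 tested) summed to 16.2 to 18.9 CPM in GFPsg and 210 to 256 CPM with the guides. Col1a1 alone averaged 7.27, 225 and 202 CPM in the 3 groups, and Dcn, Lum and Cdh5 were at or near 0 throughout. Leukocyte markers (10 genes, of which 3 rose and 1 fell among 4 tested) summed to 3.64 to 3.95 CPM and 6.19 to 7.41 CPM, with Ptprc and Itgam at 0 in every library, and epithelial markers (8 genes, 1 higher and 1 lower among 3 tested) to 1.05 to 1.30 CPM and 0.572 to 0.753 CPM. In bulk counts, fewer cells of a type and less RNA per cell cannot be told apart. The part of these shifts in the Wnt results was not tested.

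Of the 57 genes, 32 had enough reads to be tested. In the knockout contrast (GFPsg against the average of the guides), 13 rose and 11 fell (edgeR adjusted p under 0.05). Of all 17931 genes tested, 51.0% were called, with 24.7% on the higher and 26.3% on the lower side. A called change of 2-fold or more was seen for 9 of the 32 and for 11.2% of all genes tested. For 18 of the 32 the guide libraries did not overlap the controls in CPM, as for 44.0% of all genes. Scaled by library size alone, 14 of the 32 rose and 8 fell, and 63.3% of all called genes were higher, beside 48.4% with TMM. The median log2 change of the 32 was 0.03, beside −0.02 for all genes, and the median size of change was 0.42 beside 0.24. With guide 1, 12 of the 32 rose and 11 fell, where 48.4% of all genes were called, 23.8% higher and 24.5% lower. With guide 2, 11 rose and 7 fell, where 45.1% were called, 22.1% higher and 23.0% lower. These comparisons share the GFPsg libraries. Wnt11, Wnt10a and Wnt4 passed the filter on low counts only through the guide libraries and so had to be higher there. On the rising side stood the ligand genes Wnt11 and Wnt9a, the R-spondin receptor gene Lgr6 and the receptor gene Fzd2, and on the falling side Axin2, Lgr5, Rspo3 and Ctnnb1.

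**Figure D1:**
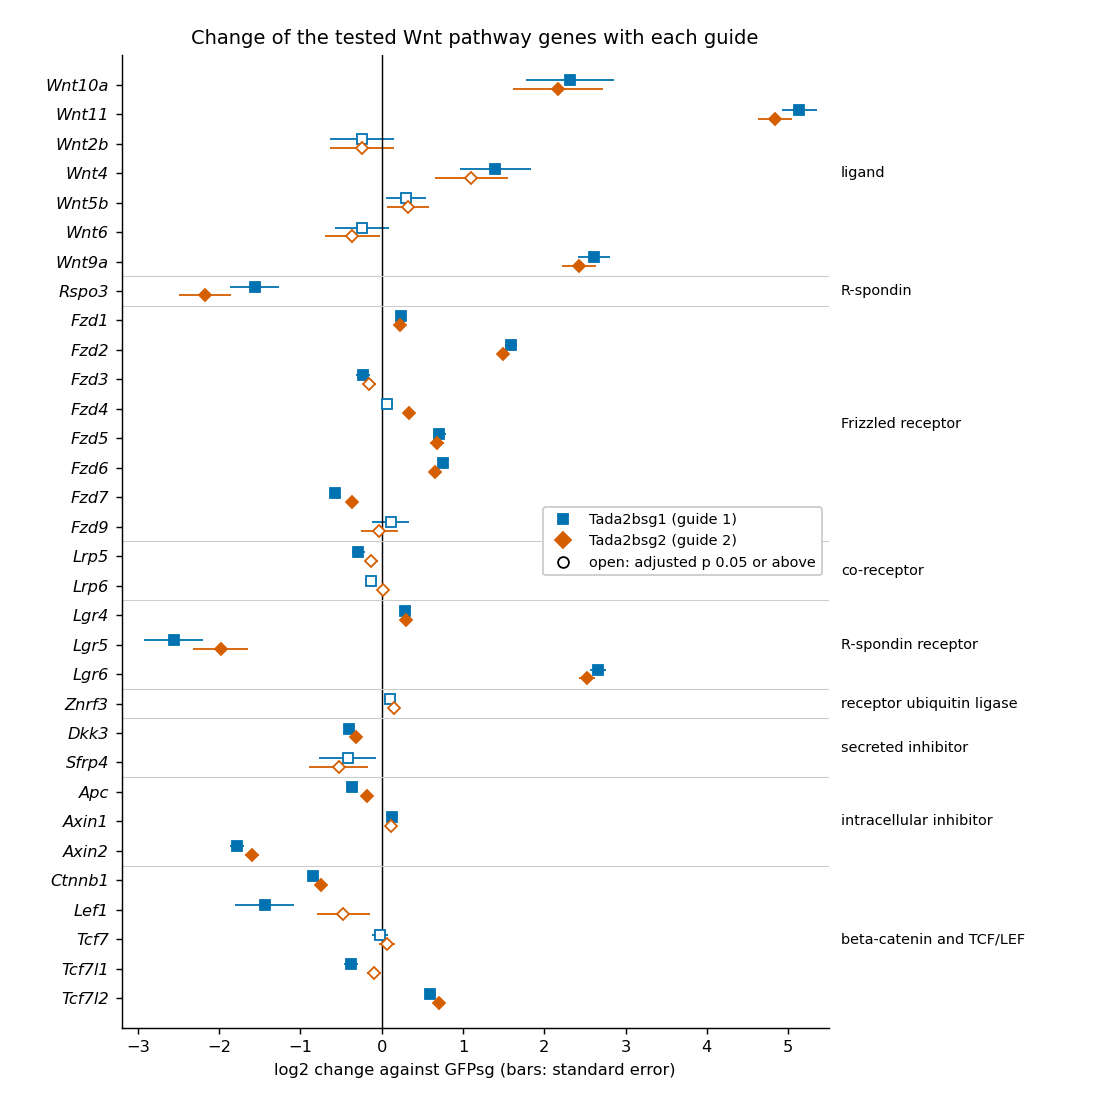
Log2 change against GFPsg of each of the 32 tested Wnt pathway genes with guide 1 (squares) and guide 2 (diamonds), with its standard error, grouped by role; open symbols did not pass an adjusted p of 0.05. Wnt11 lies farthest to the right, at 5.14 with guide 1 and 4.84 with guide 2, and Lgr5 farthest to the left with guide 1, at −2.56.

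To set the sequence beside the expression, RefSeq promoter windows of 300 bases (250 before to 50 after an annotated start, GRCm38.p6, the build mm10) were searched for the TCF/LEF core, CTTTGA or CTTTGT. Both strands were read, so that TCAAAG and ACAAAG also counted. Windows were found for 37 of the 57 genes. The core stood in 11 of their 47 windows (23.4%) and in 31.2% of all 32851 windows. Given here is 1 window each of 2 genes that rose (Wnt11 and Lgr6) and 2 that fell (Axin2 and Fzd7), 5′ to 3′ on the strand of the gene, with the core in capitals:
Wnt11, chr7:98834862-98835161, plus strand: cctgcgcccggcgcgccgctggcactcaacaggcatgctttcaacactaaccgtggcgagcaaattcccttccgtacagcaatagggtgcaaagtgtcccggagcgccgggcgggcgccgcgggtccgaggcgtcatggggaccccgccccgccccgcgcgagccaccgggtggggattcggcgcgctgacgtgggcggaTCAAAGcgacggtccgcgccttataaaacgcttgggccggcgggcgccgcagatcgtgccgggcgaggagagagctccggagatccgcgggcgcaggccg
Lgr6, chr1:135105227-135105526, minus strand: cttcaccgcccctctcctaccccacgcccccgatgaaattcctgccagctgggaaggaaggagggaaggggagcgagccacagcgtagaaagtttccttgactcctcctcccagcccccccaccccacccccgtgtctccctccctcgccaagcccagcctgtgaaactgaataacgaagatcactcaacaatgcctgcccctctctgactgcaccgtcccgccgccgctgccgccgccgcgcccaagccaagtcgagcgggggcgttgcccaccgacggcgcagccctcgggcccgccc
Axin2, chr11:108920099-108920398, plus strand: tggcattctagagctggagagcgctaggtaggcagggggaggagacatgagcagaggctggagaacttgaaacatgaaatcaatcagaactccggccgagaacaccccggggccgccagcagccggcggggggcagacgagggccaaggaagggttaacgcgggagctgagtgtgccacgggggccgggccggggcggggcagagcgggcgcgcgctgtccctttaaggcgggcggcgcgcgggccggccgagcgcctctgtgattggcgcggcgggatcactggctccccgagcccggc
Fzd7, chr1:59481897-59482196, plus strand: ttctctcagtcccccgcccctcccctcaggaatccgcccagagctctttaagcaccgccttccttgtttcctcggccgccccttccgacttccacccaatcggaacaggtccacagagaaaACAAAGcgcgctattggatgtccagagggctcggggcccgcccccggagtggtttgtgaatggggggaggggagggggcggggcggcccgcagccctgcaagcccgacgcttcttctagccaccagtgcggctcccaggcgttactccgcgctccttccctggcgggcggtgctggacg
Wnt11 has 2 windows in RefSeq, and the other one, at a later start (chr7:98838595-98838894), did not hold the core. The Wnt11 window shown had the core once, with its first base 50 bases before the start, and that of Fzd7 once, 129 bases before its RefSeq start. The whole Fzd7 window lies before the gene start given with its levels below, 59482424, so the 2 starts differ. The windows of Axin2 and Lgr6 did not hold the core, which says nothing about sites elsewhere in either gene. The motif of TEAD factors, GGAATG read on both strands, stood in 2 of the 47 windows, 1 of Lgr4 and 1 of Wnt5b, and in 14.7% of all windows. For MITF only the E-box form CATGTG was searched. Read on both strands, it stood in 0 of the 47, where 14.2% of all windows held it. The form CACGTG, which MITF also binds, was not searched, so the 0 does not cover it.

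Among the ligand genes, 4 of the 7 tested rose, 3 of them genes that passed the filter through the guide libraries alone, and the other 3 were not called. Wnt11 encodes a ligand known mainly for beta-catenin-independent signalling (ENSMUSG00000015957, chromosome 7, 98835112 to 98855195, plus strand of mm10). In GFPsg it stood at 0.0676, 0.105 and 0.126 CPM, from 5, 7 and 9 reads. Guide 1 libraries held 3.51, 3.91 and 3.25 CPM, from 277, 291 and 253 reads, and guide 2 libraries 2.89, 2.75 and 3.01 CPM, from 220, 213 and 216 reads. Every guide library was above every control library. All 3 of guide 2 lay below those of guide 1, but that difference was not called (log2 −0.30, edgeR adjusted p = 0.232). In the knockout contrast the fitted change was 31.8-fold, or 4.99 ± 0.20 on the log2 scale (SE, edgeR adjusted p = 9.22e-13). The control level, under 10 reads per library, limits how precisely the fold is known.

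Wnt9a, a ligand gene with roles in joint and skeletal development (ENSMUSG00000000126, chromosome 11, 59306928 to 59333552, plus strand), went the same way from a higher base. Its level was 0.419, 0.929 and 0.769 CPM in GFPsg, 5.23, 3.84 and 3.78 CPM with guide 1 and 4.04, 3.81 and 3.52 CPM with guide 2. The groups labelled knockout did not overlap the controls, and guide 1 replicate 1 was the highest library. The change was 5.75-fold (log2 2.52 ± 0.19, edgeR adjusted p = 4.76e-09).

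Wnt10a and Wnt4 rose at low counts. Wnt10a was counted 1 to 6 times per control library and 12 to 27 times per guide library (log2 change 2.25 ± 0.50, edgeR adjusted p = 0.00113). Wnt4 had 4, 17 and 8 reads in GFPsg and 19 to 32 with the guides (1.25 ± 0.40, edgeR adjusted p = 0.0142), so that the highest control library, replicate 2, reached 0.255 CPM against 0.245 CPM in the lowest guide library. Leaving out GFPsg replicate 1 ended that call (0.85, adjusted p = 0.0934), as did replicate 3 (1.13, adjusted p = 0.0643), and the change was 1.99 without GFPsg replicate 2. With guide 2 alone Wnt4 was not called (1.10, adjusted p = 0.0555). Wnt5b (0.645 to 0.973 CPM in GFPsg, 0.697 to 1.31 CPM with the guides), Wnt6 (0.360 to 0.713 and 0.250 to 0.564 CPM) and Wnt2b (0.195 to 0.338 and 0.140 to 0.329 CPM) were not called.

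The ligand genes left untested were counted at most 6 times in any library. Wnt1 and Wnt7a had 0 reads in all 9 libraries, where 3 reads would stand for 0.0380 to 0.0450 CPM. Wnt2, Wnt3, Wnt3a, Wnt5a, Wnt7b, Wnt8a, Wnt8b, Wnt9b and Wnt16 had a few reads in some libraries. Wnt5a, which encodes a ligand much studied in invasive melanoma, had 1 read in total. Wnt10b had 0 reads in each control library, 6, 5 and 2 with guide 1 and 1, 2 and 1 with guide 2. It was called higher in the knockout contrast once no filter was applied (edgeR adjusted p = 0.0394). By single guide, that fit called it with guide 1 (adjusted p = 0.0113) and not with guide 2 (adjusted p = 0.184).

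Per kilobase of exon, which allows levels of different genes to be compared, the 19 ligand genes summed to 0.876, 0.860 and 1.02 RPKM (CPM divided by the exon length in kilobases) in GFPsg. The sums were 3.36, 2.94 and 2.76 RPKM with guide 1 and 2.55, 2.69 and 2.73 RPKM with guide 2, above every control. Wnt5b and Wnt6 made up 33.3 ± 7.4% and 25.4 ± 6.3% of the control sum (mean ± SD, n = 3), and Wnt9a 23.1 ± 9.1%. With the guides Wnt9a took 42.4 ± 3.9% and 42.9 ± 4.5%, and Wnt11 28.6 ± 3.4% and 26.3 ± 1.4%, up from 2.60 ± 0.63%. These sums stayed under that of the Frizzled genes, which was 35.2 RPKM or more in every library.

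**Figure D2:**
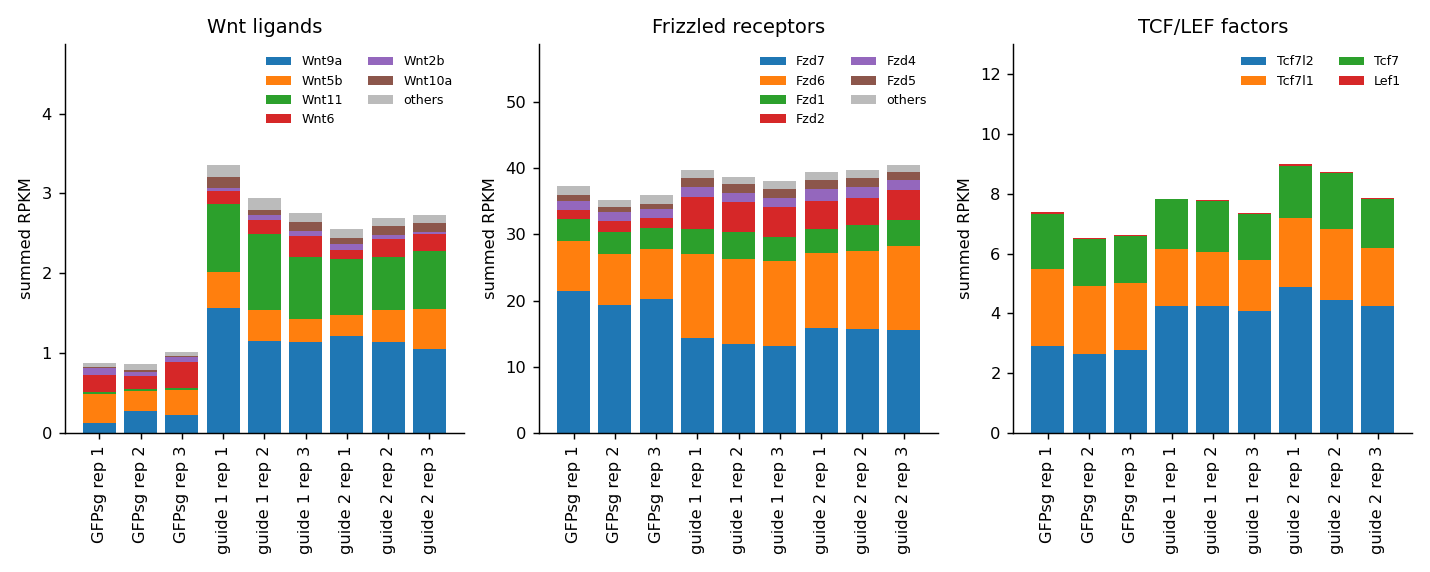
Summed RPKM per library of the ligand, Frizzled and TCF/LEF genes, with each bar split by gene; the 6 highest genes of a family are named and the rest pooled as others. The ligand sum is near 1 RPKM or under in GFPsg and 2.55 to 3.36 RPKM with the guides, mostly Wnt9a and Wnt11, whereas the Frizzled sum differs little and its make-up shifts from Fzd7 to Fzd6 and Fzd2.

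Rspo3 was the R-spondin gene with enough reads to be tested, and it fell. R-spondin 3 is a secreted amplifier of Wnt signals (ENSMUSG00000019880, chromosome 10, 29452416 to 29535867, minus strand). Its reads were 79, 46 and 93 in GFPsg, 27, 18 and 35 with guide 1 and 21, 15 and 15 with guide 2, without overlap. The log2 change was −1.86 ± 0.26 (edgeR adjusted p = 9.55e-06), or 3.64-fold lower. Rspo1 (4, 5 and 1 reads in GFPsg, and 2 reads in all 6 guide libraries together) and Rspo2 (0, 5 and 3 reads, and 0 with the guides) were called lower without the filter (edgeR adjusted p = 0.0135 and 0.00526). By single guide, the fit without the filter called Rspo1 lower with guide 2 (edgeR adjusted p = 0.0226) and not with guide 1 (adjusted p = 0.218). Rspo4 had 1 read in all.

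The receptors of R-spondins split by member. Lgr6 (ENSMUSG00000042793, chromosome 1, 134983301 to 135105276, minus strand) had the lowest p of the 32 tested members of these families. It stood at 1.55, 1.86 and 1.62 CPM in GFPsg, 11.5, 10.5 and 9.89 CPM with guide 1 and 10.4, 9.47 and 9.22 CPM with guide 2. All guide libraries lay above all controls, and the guides overlapped each other. The rise was 6.05-fold (log2 2.60 ± 0.09, edgeR adjusted p = 1.92e-13). Lgr5, a stem cell marker and itself a beta-catenin target in the gut (ENSMUSG00000020140, chromosome 10, 115450311 to 115587780, minus strand), went the other way at far lower levels. Its reads were 52, 50 and 62 in GFPsg, 5, 14 and 11 with guide 1 and 11, 19 and 14 with guide 2 (0.703, 0.750 and 0.867 CPM, then 0.0633, 0.188 and 0.141 CPM, then 0.145, 0.245 and 0.195 CPM). The groups did not overlap, and the fall was 4.81-fold (log2 −2.27 ± 0.29, edgeR adjusted p = 3.69e-06).

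Lgr4, the most abundant of the 3, rose slightly (32.6 to 35.9 CPM in controls, 41.1 to 44.0 CPM in guide libraries, log2 0.30 ± 0.04, edgeR adjusted p = 1.62e-05). Per kilobase Lgr4 made up 94.8 ± 0.62% of the Lgr sum in GFPsg, 82.0 ± 1.2% with guide 1 and 83.4 ± 0.96% with guide 2. The share of Lgr6 went from 3.99 ± 0.55% to 17.8 ± 1.3% and 16.4 ± 1.0%. The sum itself was 5.89 to 6.39 RPKM in GFPsg and 8.39 to 8.96 RPKM in the guide libraries. Of the ubiquitin ligases that R-spondins restrain by binding Lgr receptors, Znrf3 was not called (20.4 to 23.5 CPM in GFPsg, 23.2 to 27.3 CPM with the guides, log2 0.13 ± 0.06, edgeR adjusted p = 0.0804). For Znrf3 this became a call without GFPsg replicate 1 (0.18, adjusted p = 0.0304), without guide 2 replicate 2 (0.16, adjusted p = 0.0402) or replicate 3 (0.16, adjusted p = 0.0329), and with library size alone (0.21, adjusted p = 0.0120). Rnf43 had 0 to 5 reads per library.

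Of 8 tested Frizzled genes 5 rose, 2 fell and Fzd9 was not called. Fzd2 (ENSMUSG00000050288, chromosome 11, 102604396 to 102608058, plus strand) rose most. It was at 5.43, 6.03 and 5.40 CPM in GFPsg, 17.6, 16.9 and 16.2 CPM with guide 1 and 16, 15.1 and 16.3 CPM with guide 2. No guide library came near the controls, and the rise was 2.91-fold (log2 1.54 ± 0.06, edgeR adjusted p = 1.31e-12).

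Fzd6, whose product acts in planar cell polarity (ENSMUSG00000022297, chromosome 15, 39006034 to 39038188, plus strand), was higher at 36.3, 37.0 and 36.7 CPM to begin with. It reached 61.1, 61.5 and 61.9 CPM with guide 1 and 54.5, 56.2 and 61.4 CPM with guide 2 (log2 0.70 ± 0.04, edgeR adjusted p = 2.01e-10). Fzd5 (ENSMUSG00000045005, chromosome 1, 64730558 to 64737751, minus strand) was counted at 5.90, 5.29 and 5.48 CPM, then 9.19, 8.95 and 9.19 CPM, then 9.76, 8.93 and 8.01 CPM (log2 0.69 ± 0.07, edgeR adjusted p = 5.05e-07). Both showed a rise of 1.62-fold with no overlap between controls and guides. Fzd1 went from 13.2 to 14.2 CPM to 15.2 to 17.1 CPM (log2 0.23 ± 0.06, edgeR adjusted p = 0.00179).

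Fzd7, a receptor for canonical Wnt signals (ENSMUSG00000041075, chromosome 1, 59482424 to 59486955, plus strand), was the most abundant Frizzled gene and fell. Its level was 97.1, 87.5 and 91.8 CPM in GFPsg, 64.8, 60.8 and 59.8 CPM with guide 1 and 71.6, 71.4 and 70.4 CPM with guide 2. The 3 groups did not overlap at all. The log2 change was −0.47 ± 0.04 (edgeR adjusted p = 1.39e-08). Fzd3 fell narrowly (9.03 to 10.4 CPM in GFPsg, 7.70 to 9.42 CPM with the guides, log2 −0.19 ± 0.07, edgeR adjusted p = 0.0311). Its groups overlapped, and 7 of 16 alternatives ended the call, with adjusted p from 0.0546 to 0.263 in those 7. With guide 1 Fzd3 was called lower (−0.23, adjusted p = 0.0288), and with guide 2 it was not called (−0.15, adjusted p = 0.138). Among these were the fits without GFPsg replicate 1 (−0.14, adjusted p = 0.172), GFPsg replicate 3 (−0.19, adjusted p = 0.0826), guide 1 replicate 1 (−0.18, adjusted p = 0.0546) or 3 (−0.15, adjusted p = 0.0895) and guide 2 replicate 2 (−0.16, adjusted p = 0.0816) or 3 (−0.16, adjusted p = 0.0806), and library size alone (−0.11, adjusted p = 0.263).

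Fzd7 and Fzd4 were the members that differed between the guides (edgeR, guide 2 against guide 1). Both were higher with guide 2, so that 2 of the 32 were called, beside 3.68% of all genes and 2.66% of all genes on the higher side. Fzd4, a receptor that also serves the ligand Norrin, lay between 8.81 and 8.92 CPM in controls, between 8.91 and 9.75 CPM with guide 1 and between 10.9 and 11.7 CPM with guide 2. It was higher with guide 2 than with guide 1 by 0.27 (adjusted p = 0.0313). In the knockout contrast Fzd4 was called higher (log2 0.21 ± 0.06, adjusted p = 0.00656) although its groups overlapped. Against GFPsg its log2 change was 0.07 with guide 1 (adjusted p = 0.397) and 0.34 with guide 2 (adjusted p = 0.000441). Fzd7 was higher with guide 2 by 0.20 (adjusted p = 0.0166), having fallen by 0.58 with guide 1 and by 0.37 with guide 2. Melanocyte markers also differed between the guides, all 10 being higher with guide 2, and their part in this was not tested. Leaving out single libraries ended the difference for both genes in 3 cases, as given under the closing observations.

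Per kilobase, the Frizzled genes summed to 35.2 to 37.3 RPKM in GFPsg, 38.0 to 39.7 RPKM with guide 1 and 39.4 to 40.5 RPKM with guide 2, a small difference beside the change in make-up. Fzd7 held 56.3 ± 1.3% of the sum in GFPsg, 35.2 ± 0.71% with guide 1 and 39.4 ± 0.93% with guide 2. Fzd6 went from 21.1 ± 0.84% to 32.9 ± 0.95% and 29.9 ± 1.4%. Fzd2 went from 4.25 ± 0.37% to 11.9 ± 0.24% and 10.8 ± 0.36%. Fzd8 and Fzd10 had 0 reads in all libraries.

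The co-receptor genes moved little. Lrp6 was not called (137 to 153 CPM in GFPsg, 129 to 163 CPM with the guides, log2 −0.05 ± 0.06, edgeR adjusted p = 0.446). Lrp5 was called lower (19.5 to 22.5 CPM and 15.8 to 21.1 CPM, log2 −0.21 ± 0.07, edgeR adjusted p = 0.0160) with overlapping groups. With guide 1 it was called lower (−0.29, adjusted p = 0.00571), and with guide 2 it was not called (−0.13, adjusted p = 0.200). The Lrp5 call was lost without GFPsg replicate 1 (−0.16, adjusted p = 0.0943), GFPsg replicate 3 (−0.20, adjusted p = 0.0601) or guide 1 replicate 3 (−0.17, adjusted p = 0.0511), and with library size alone (−0.13, adjusted p = 0.181).

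**Figure D3:**
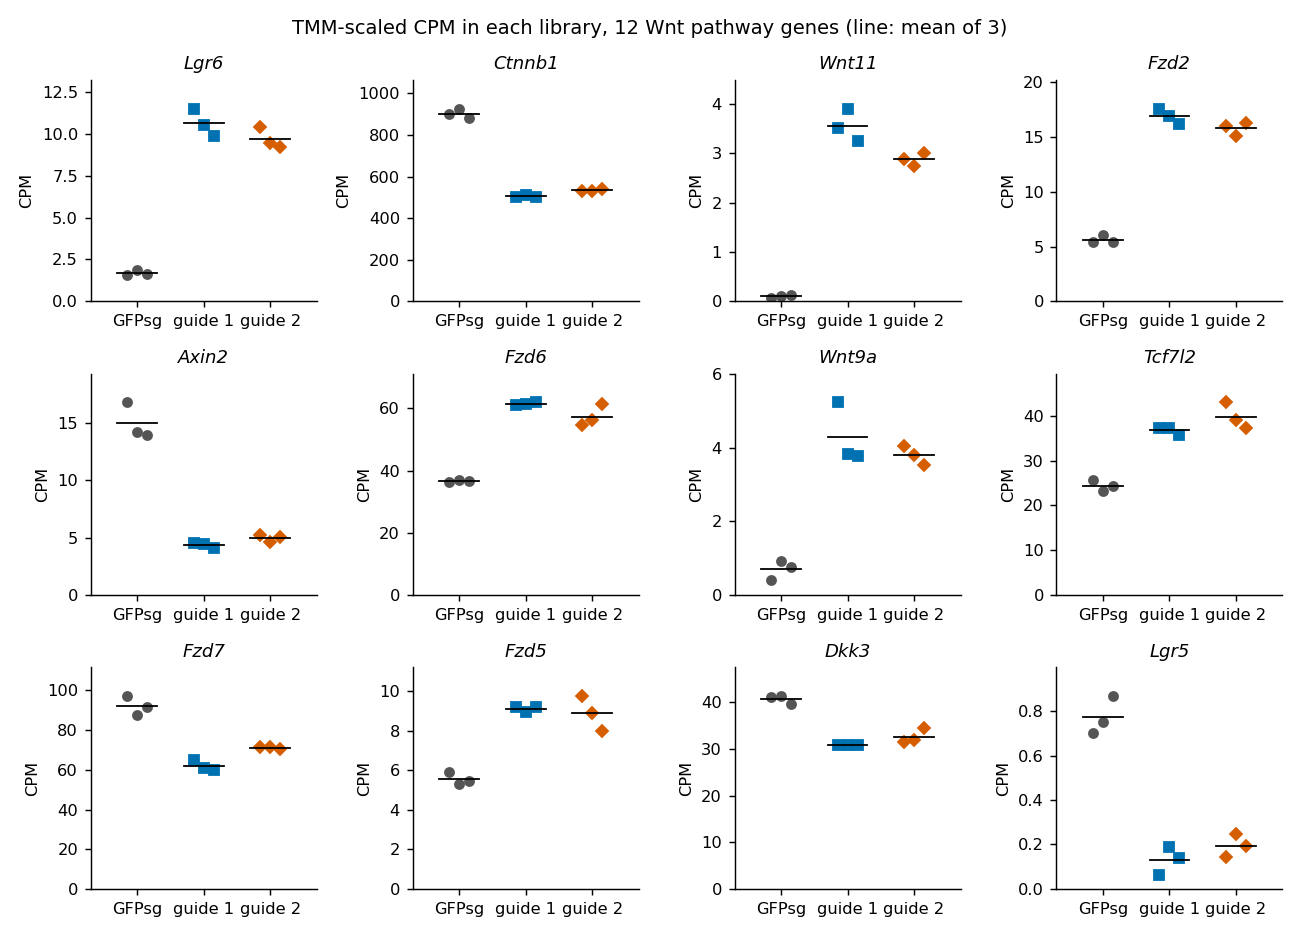
CPM in each of the 9 libraries, on linear axes from 0, for the 12 genes of lowest p in that contrast between knockout and control, with the mean of each group as a line. In all 12 genes the 6 guide libraries lie wholly above or wholly below the 3 controls; Ctnnb1, Axin2, Fzd7, Dkk3 and Lgr5 are the ones below.

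Of the secreted inhibitor genes, Dkk3 was well counted. It encodes the divergent member of the Dickkopf family (ENSMUSG00000030772, chromosome 7, 112116017 to 112159057, minus strand). It stood at 41.2, 41.3 and 39.6 CPM in GFPsg, 30.8 CPM in each guide 1 library and 31.5, 32.0 and 34.5 CPM with guide 2. Every guide library was below every control (log2 −0.36 ± 0.04, edgeR adjusted p = 7.3e-07). Sfrp4, with 15 to 42 reads per control library and 19 to 30 per guide library, was not called (log2 −0.47 ± 0.30, edgeR adjusted p = 0.209), but was called lower without GFPsg replicate 2 (−0.76, adjusted p = 0.0427). Dkk1, Dkk4, Sfrp1 and Sfrp5 had 0 to 2 reads per library, and Dkk2 and Sfrp2 had none.

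Among the inhibitors inside the cell, Axin2 changed most. Axin2 is a scaffold of the beta-catenin destruction complex and, as a direct target of beta-catenin and TCF, a widely used readout of the pathway (ENSMUSG00000000142, chromosome 11, 108920349 to 108950783, plus strand). Control libraries held 16.8, 14.2 and 14.0 CPM, from 1244, 950 and 1003 reads. Guide 1 libraries held 4.56, 4.42 and 4.14 CPM, from 360, 329 and 323 reads, and guide 2 libraries 5.22, 4.67 and 5.11 CPM, from 397, 362 and 366 reads. No guide library exceeded 5.22 CPM and no control fell below 14.0 CPM. The fall was 3.21-fold (log2 −1.68 ± 0.07, edgeR adjusted p = 2.11e-12), and ranged from −1.72 to −1.60 over 16 alternatives.

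Axin1, the constitutive scaffold, was called slightly higher (35.6 to 39.3 CPM in GFPsg, 39.4 to 41.6 CPM with the guides, log2 0.12 ± 0.04, edgeR adjusted p = 0.0164). With guide 2 alone Axin1 was not called (0.12, adjusted p = 0.0527). The call in the knockout contrast was lost without GFPsg replicate 3 (0.10, adjusted p = 0.0749), and over 16 alternatives the change ranged from 0.10 to 0.21, the latter with library size alone. Apc, another scaffold of the complex, fell in the knockout contrast with overlapping groups (log2 −0.27 ± 0.05, edgeR adjusted p = 0.000221). Its level was 152 to 167 CPM in GFPsg and 120 to 125 CPM with guide 1 (log2 −0.37, adjusted p = 5.47e-05). With guide 2, Apc was at 156, 136 and 128 CPM, which overlapped the controls (log2 −0.18, adjusted p = 0.0224). The guide 2 call was lost without GFPsg replicate 1 (−0.14, adjusted p = 0.0833) or 3 (−0.17, adjusted p = 0.0579) and without guide 2 replicate 2 (−0.14, adjusted p = 0.112) or 3 (−0.10, adjusted p = 0.162). The same held for Apc with library size alone (−0.09, adjusted p = 0.302) and in a fit of only the groups compared (−0.16, adjusted p = 0.0686). Nkd1, an inhibitor that many tissues induce under Wnt, had at most 1 read per library.

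Ctnnb1, the gene of beta-catenin, which also anchors cadherins at cell junctions, was the most abundant member by far (ENSMUSG00000006932, chromosome 9, 120929216 to 120960507, plus strand). Its level was 899, 927 and 883 CPM in GFPsg, 504, 510 and 501 CPM with guide 1 and 532, 533 and 542 CPM with guide 2. The 3 groups did not overlap one another, but guide 2 against guide 1 was not called (log2 0.08, edgeR adjusted p = 0.237). In the knockout contrast the log2 change was −0.80 ± 0.03 (edgeR adjusted p = 4.32e-13), or 1.74-fold lower. It took 55.4 to 57.9% of all reads on the 57 genes in GFPsg and 41.4 to 44.3% in the guide libraries. Ulk4 lies on the other strand and shares 759 bases of exon with Ctnnb1, 14.62% of the Ctnnb1 exon length. Ulk4 had 1256 reads in all libraries together beside 428889 for Ctnnb1. Without a stated strand setting, these totals do not show how the shared bases affected the Ctnnb1 count. Beta-catenin is controlled mainly as a protein, which was not measured here.

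The TCF/LEF factor genes moved apart from each other. Tcf7l2 (ENSMUSG00000024985, chromosome 19, 55741820 to 55933654, plus strand) rose without overlap. Its control libraries held 25.6, 23.3 and 24.3 CPM, those of guide 1 37.4, 37.2 and 35.8 CPM and those of guide 2 43.0, 39.0 and 37.3 CPM (log2 0.65 ± 0.05, edgeR adjusted p = 7.77e-09). Tcf7l1, known mostly as a repressor, was called lower (8.80 to 10.0 CPM in GFPsg, 6.68 to 9.36 CPM with the guides, log2 −0.24 ± 0.07, edgeR adjusted p = 0.0135), by 0.38 with guide 1 (adjusted p = 0.00145) and at −0.09 without a call with guide 2 (adjusted p = 0.430). The Tcf7l1 call in the knockout contrast was lost without GFPsg replicate 1 (−0.17, adjusted p = 0.0995) and with library size alone (−0.15, adjusted p = 0.126).

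Lef1, itself a target in many tissues, was barely counted. It had 34, 25 and 26 reads in GFPsg, 15, 7 and 12 with guide 1 and 26, 22 and 17 with guide 2 (log2 −0.95 ± 0.29, edgeR adjusted p = 0.0108). All guide libraries were below the controls on the CPM scale, but the call ended without GFPsg replicate 1 (−0.84, adjusted p = 0.0616). With guide 2 alone Lef1 was not called (log2 −0.47, adjusted p = 0.267). Tcf7 was not called (4.15 to 4.86 and 4.11 to 4.94 CPM, log2 0.02 ± 0.09, edgeR adjusted p = 0.843). Per kilobase, Tcf7l2 made up 40.7 ± 1.1% of the summed TCF/LEF level in GFPsg, 54.8 ± 0.53% with guide 1 and 53.1 ± 2.0% with guide 2, and Tcf7l1 34.3 ± 0.43%, 23.5 ± 0.41% and 25.9 ± 1.3%. These genes give several isoforms, which counts per gene do not separate.

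The order of levels per kilobase in GFPsg ran from Ctnnb1 (174 ± 4.2 RPKM; mean ± SD, n = 3) over Fzd7 (20.3 ± 1.1) and Dkk3 (12.1 ± 0.28) to Lrp6 (10.6 ± 0.57), Apc (9.82 ± 0.49) and Axin1 (9.71 ± 0.50). The ranges of mean ± SD of Lrp6, Apc and Axin1 overlapped. All genes were read in the same libraries, so overlap of these ranges does not show equal levels, and their order was not tested. Fzd6 (7.61 ± 0.08) and Lgr4 (5.84 ± 0.28 RPKM) followed. The ranges of Znrf3 (2.80 ± 0.20), Tcf7l2 (2.78 ± 0.13) and Axin2 (2.73 ± 0.28 RPKM) overlapped in the same way. With the guides Axin2 stood at 0.794 ± 0.038 and 0.908 ± 0.053 RPKM, under Fzd2 (4.62 ± 0.19 and 4.32 ± 0.17 RPKM), which it exceeded in GFPsg (1.53 ± 0.10 RPKM). No ligand gene exceeded 1.29 RPKM as a group mean, the value of Wnt9a with guide 1.

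**Figure D4:**
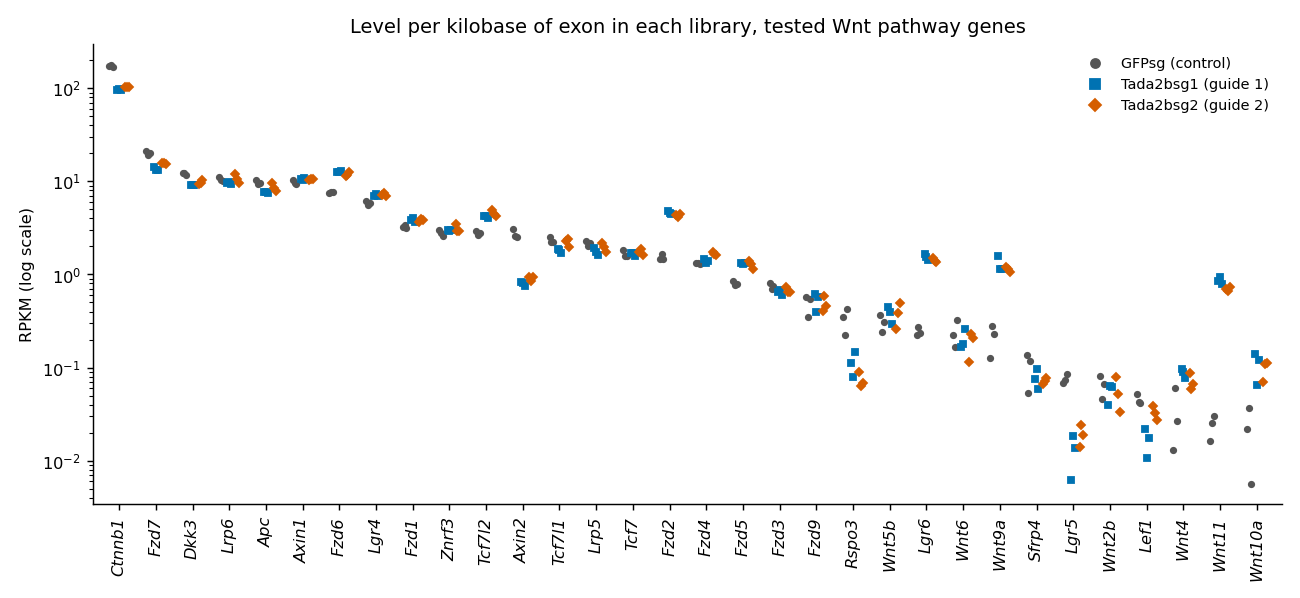
RPKM of the 32 tested genes in each library on a log axis, ordered by the mean in GFPsg from Ctnnb1 on the left to Wnt10a on the right. The guide libraries of Fzd2, Lgr6, Wnt9a and Wnt11 lie above the control points, and those of Ctnnb1, Axin2, Rspo3 and Lgr5 below them.

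Other genes of the pathway were taken from 4 lists, which held 67 genes, 54 of them tested. In the knockout contrast 15 rose, 16 fell and 23 were not called (57.4% called, beside 51.0% of all genes), with a median log2 change of 0.00. In the secretion and extracellular list, 2 of 6 tested genes rose and 1 fell. Frzb, a secreted Wnt antagonist, fell from 14.5 ± 0.18 CPM in GFPsg to 5.21 ± 0.56 and 7.42 ± 0.74 CPM (log2 −1.22 ± 0.07, edgeR adjusted p = 2.06e-10). Draxin, at 31 to 81 reads per library, rose by 0.51 (edgeR adjusted p = 0.0445). With guide 2 alone Draxin was not called (0.43, adjusted p = 0.151). Wls, which carries Wnt proteins to the cell surface, was not called (362, 364 and 344 CPM as group means). Among non-canonical receptors and polarity genes 4 rose, 5 fell and 4 were not called. The polarity gene Prickle1 fell from 146 ± 2.9 CPM to 54.1 ± 0.84 and 72.7 ± 1.4 CPM (log2 −1.22 ± 0.03, edgeR adjusted p = 2.18e-15) and Vangl2 by 0.54. The pseudokinase gene Ptk7 rose by 0.80 and the formin gene Daam2 by 0.73.

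In the cytoplasmic relay list 4 rose, 4 fell and 12 were not called. Dact1, which encodes a partner of Dishevelled, rose from 5.00 ± 0.16 CPM to 34.7 ± 0.92 and 27.2 ± 1.4 CPM (log2 2.62 ± 0.06, edgeR adjusted p = 2.84e-16) and Dvl1, a Dishevelled gene, by 0.58. Csnk1e, a casein kinase gene, fell by 0.52. Of the nuclear cofactors 5 rose, 6 fell and 4 were not called. Bcl9l and Bcl9, whose products bind beta-catenin, rose by 1.06 and 0.70, while Pygo1, which joins them on chromatin, fell from 28.8 ± 1.7 CPM to 8.89 ± 0.61 and 10.8 ± 1.1 CPM (log2 −1.56 ± 0.06, edgeR adjusted p = 1.04e-12). Tle1, a TCF corepressor gene, fell by 0.81.

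Known beta-catenin targets formed a list of 21 genes, 14 of them tested, of which 10 fell, 1 rose and 3 were not called, where 26.3% of all genes tested fell and 24.7% rose. The median log2 change was −0.85 beside −0.02 for all genes. Of these 14, 5 are also members of the families above (Axin2, Lef1 and Lgr5 fell, and Tcf7 and Znrf3 were not called). Bambi, a decoy receptor that targets TGF-beta signals, fell from 27.0 ± 2.0 CPM to 10.6 ± 0.06 and 11.4 ± 0.62 CPM (log2 −1.30 ± 0.05, edgeR adjusted p = 1.65e-12). Id2, which encodes an inhibitor of bHLH factors, fell by 1.79, and Mitf, the master regulator of pigment cells, by 1.46. The log2 change of Mitf was −1.68 with guide 1 and −1.24 with guide 2. Between the guides, 5 of the 14 tested targets were called, all 5 higher with guide 2, beside 3.68% of all genes called. Mitf is also 1 of the 10 melanocyte markers, all of which fell, and the part of that shift here was not tested. The list was drawn up with earlier results in view, so its direction is no independent evidence. Several of these genes have other regulators, and the cyclin gene Ccnd1 was not called (log2 0.09, edgeR adjusted p = 0.0513). By single guide, Ccnd1 was called higher with guide 2 (0.12, adjusted p = 0.0351) and not called with guide 1 (0.07, adjusted p = 0.230). Among all 13 targets outside the families, 9 were tested, 7 fell and 1 rose, beside the same 26.3% and 24.7% of all genes.

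**Figure D5:**
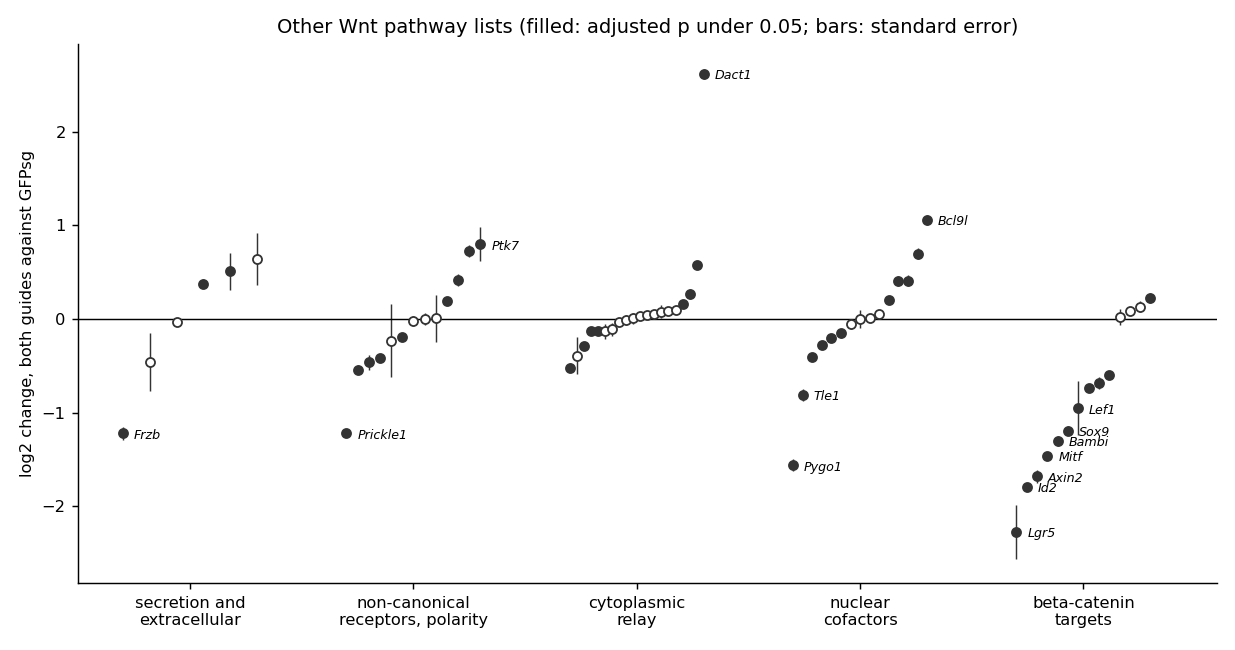
Log2 change in the knockout contrast of each tested gene of 4 further pathway lists and of the list of known beta-catenin targets, which includes Axin2, Lef1, Lgr5, Tcf7 and Znrf3; genes are spread by rank within a list. The first 4 lists spread to both sides of 0, with Dact1 highest at 2.62, while 10 of 14 targets lie below 0 as filled points.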

How the data were processed

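The data were 9 RNA-seq libraries of B16F10 cells, 3 per group, grouped by their titles. The authors deposited raw read counts per Ensembl gene, 1 column per library. Named in the submitters' processing notes are bcl2fastq, HISAT2 and HTSeq, with mm10 as the build. Their versions, the annotation and the strand setting are not given in the sources used here. Per the labels' protocols the library kit was stranded. Of 54752 identifiers 54723 matched GENCODE M21 (mm10), which gave symbols, coordinates and exon lengths. Exons of 11 of the genes examined overlap another gene, and without a stated strand setting such reads cannot be told apart.

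Counts were filtered with filterByExpr (count minimum 10), which kept 17931 genes with 99.97% of counts, and scaled by TMM (factors 0.946 to 1.03). The quasi-likelihood F test of edgeR 4.0.16 (R 4.3.3) was applied to 1 fit of 3 groups, with Benjamini-Hochberg adjustment over all genes tested, and genes under an adjusted p of 0.05 were called. Standard errors are the size of the log2 change over the square root of F. RPKM divide TMM-scaled CPM by union exon length. Replicate pairs differed beyond sampling noise (chi-square per degree of freedom 7.12 to 22.7). The test was checked on simulated counts. Only well-counted genes were changed there, so that check does not cover genes at low counts. Alternatives were DESeq2 1.42.0, other scalings and filters, fits of only the groups compared, a replicate block and leaving out each library.

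The genes and lists were chosen with earlier results of these data known. By the naming rule every member was accounted for, the 12 with the lowest p were given in every library, and of other lists up to 4 called genes per direction with a log2 change of at least 0.5 were named. Wls, Ccnd1, the low-count genes given per library and the genes of the promoter windows shown were chosen after their values were seen.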

Additional observations from a re-analysis of the deposited data

Results flagged for a closer look

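Fzd4 and Fzd7 differed between the guides in the test of the difference itself, guide 2 against guide 1. For Fzd4 the log2 difference was 0.27 (edgeR adjusted p = 0.0313), with guide 2 at 10.9 to 11.7 CPM and guide 1 at 8.91 to 9.75 CPM. For Fzd7 it was 0.20 (edgeR adjusted p = 0.0166), with guide 2 at 70.4 to 71.6 CPM and guide 1 at 59.8 to 64.8 CPM. In both genes the 3 libraries of guide 2 lay above the 3 of guide 1. Groups of 3 are too small for a check of single outlying libraries.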

How the results depend on the processing

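In the knockout contrast 22 to 27 of the genes were called under the other scalings, DESeq2, no filter and the replicate block, beside 24, and 19 of the 23 genes with a mean of at least 1 CPM. Leaving out single libraries gave 20 to 25. No called gene changed direction in any of the 4 contrasts. Of the single-gene values of that contrast under alternatives, 480 kept their side of the threshold, 17 lost the call (in Fzd3, Tcf7l1, Lrp5, Lef1, Wnt4 and Axin1), and 6 gained one (Znrf3 and Sfrp4). With library size alone the median log2 change of all genes was 0.07, and 63.3% of called genes were higher, beside 48.4% by TMM.

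The count of 2 differing between the guides was the least stable. It was 4 with DESeq2, 4 with no filter and 4 with the replicate block, each time by adding Tcf7l1 and Apc, and 0 to 5 when single libraries were left out. It was 0 without guide 1 replicate 2 (Fzd4 0.24, adjusted p = 0.155; Fzd7 0.19, adjusted p = 0.0970), without guide 1 replicate 3 (0.27, adjusted p = 0.121; 0.18, adjusted p = 0.123) and without guide 2 replicate 2 (0.28, adjusted p = 0.0923; 0.20, adjusted p = 0.0718). It was 1 without guide 2 replicate 1, where Fzd4 was lost (adjusted p = 0.120), and 5 without guide 2 replicate 3, where Lrp6 was added as well. The cause was not tested.

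Libraries with the same replicate number correlated at 0.04 to 0.31 in their deviations from the group means (9 pairs), and 8 of 9 libraries correlated best with their own number. Of these 9 pairs 5 were at 0.1 or below. Pairs of different number correlated at −0.27 to 0.15 (18 pairs, 2 of them over 0.1). Whether the numbers mark a pairing is not given, so the main fit used groups alone, with the replicate block as an alternative. Over all genes tested, the block raised the share called from 51.0% to 55.4% in the knockout contrast. For guide 2 against guide 1 that share went from 3.68% to 9.51%. With the replicate block the calls were 25 in the knockout contrast, where Znrf3 was added (0.13, adjusted p = 0.0266), 24 with guide 1, where Lrp6 was added (−0.12, adjusted p = 0.0225), and 20 with guide 2, where Axin1 (0.12, adjusted p = 0.0305) and Znrf3 (0.15, adjusted p = 0.0253) were added. Depth limits the genes under 1 CPM most, a level that stood for 66.7 to 79.0 reads per library.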

Other observations

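Below the filter on low counts, 2 of the 13 untested genes of the 4 pathway lists had reads that separated the controls from the guides. The share of all genes below the filter that separate in this way was not computed. Notum, which encodes an enzyme that inactivates secreted Wnt proteins and is itself a beta-catenin target, had 0, 0 and 2 reads in GFPsg, 8, 12 and 15 with guide 1 and 6, 8 and 5 with guide 2. Nkd2, a relative of Nkd1, had 10, 11 and 14 reads in GFPsg, 3, 2 and 5 with guide 1 and 2, 5 and 5 with guide 2. Both were picked after their values were seen, and neither was tested.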
